A study of Saccharomyces cerevisiae with 21 samples.

Results

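The 10 genes described here encode transcription factors that switch on, or switch off, stress genes in the budding yeast Saccharomyces cerevisiae: HSF1, MSN2, MSN4, GIS1, RPH1, USV1, HOT1, YAP1, SKN7 and XBP1. They were picked by gene symbol from the 5449 genes measured, and each had 1 probe set on the array, so no choice between probe sets was needed. The study placed RNA from 7 groups of 3 samples on 21 Affymetrix arrays. In YPD, the standard rich medium, cells were given heat stress together with ISP1, heat stress alone, ISP1 alone, or no treatment (control). Cells in synthetic complete medium (SC) received myristate together with ISP1, myristate alone, or no treatment (control). The design text equates ISP1 with myriocin, which blocks serine palmitoyltransferase and so the start of sphingolipid synthesis. Myristate is a saturated fatty acid. Treatments lasted 45 min per the labels, except that myristate with ISP1 has no time given, and its replicates 2 and 3 carry another number after ISP in their descriptions than in their titles, which were followed. The labels name no strain or genotype, no temperature or dose, and no vehicle for either control.

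Yeast answers stress with several factors that divide the work. Hsf1, essential for growth, binds heat shock elements and drives chaperone genes. Msn2 and its paralogue Msn4 are zinc finger proteins that enter the nucleus when protein kinase A activity drops and bind stress response elements in front of a broad set of general stress genes. Gis1 and its paralogue Rph1 carry a JmjC domain and zinc fingers that recognise related elements, with Rph1 also a repressor of autophagy genes and of the DNA repair gene PHR1. Usv1 is a further zinc finger factor, Hot1 acts with the kinase Hog1 in osmotic stress, Yap1 and Skn7 drive genes against oxidative stress, and Xbp1 is a stress-induced repressor of the cyclin gene CLN1. Hsf1, Msn2, Msn4, Yap1 and Hot1 are controlled largely at the level of the protein, by phosphorylation, location or binding partners, so a transcript level is not a measure of their activity.

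Levels below are log2 signal. A difference is given as limma's log2 fold change ± its standard error, 3 arrays a group, and counts as passed where the p-value adjusted by Benjamini-Hochberg over all 5449 genes was under 0.05. The labels do not state that replicates were grown separately, so the tests reflect only how much these samples scatter, part or all of which may be technical, and precision is limited by having 3 arrays. Across genes, r between replicates was 0.9928 to 0.9985, and the median over all genes lay between 10.21 and 10.33 on every array. Signal of probe sets for another species served as background. All 10 factors had a mean above the limit it set (4.89), and the lowest value of any of them was 5.53, for XBP1 on a YPD control array. The 3' minus 5' signal of the actin probe sets, a sign of RNA quality, was 0.44 ± 0.01 (log2 ± SD, n = 3) with heat and ISP1, 0.51 ± 0.03 with heat, 0.42 ± 0.05 with ISP1 and 0.38 ± 0.02 in the YPD control. In SC it was 0.17 ± 0.02 with myristate and ISP1, 0.17 ± 0.01 with myristate and 0.13 ± 0.01 in the control. The part of these shifts in the results below was not tested.

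**Figure D1:**
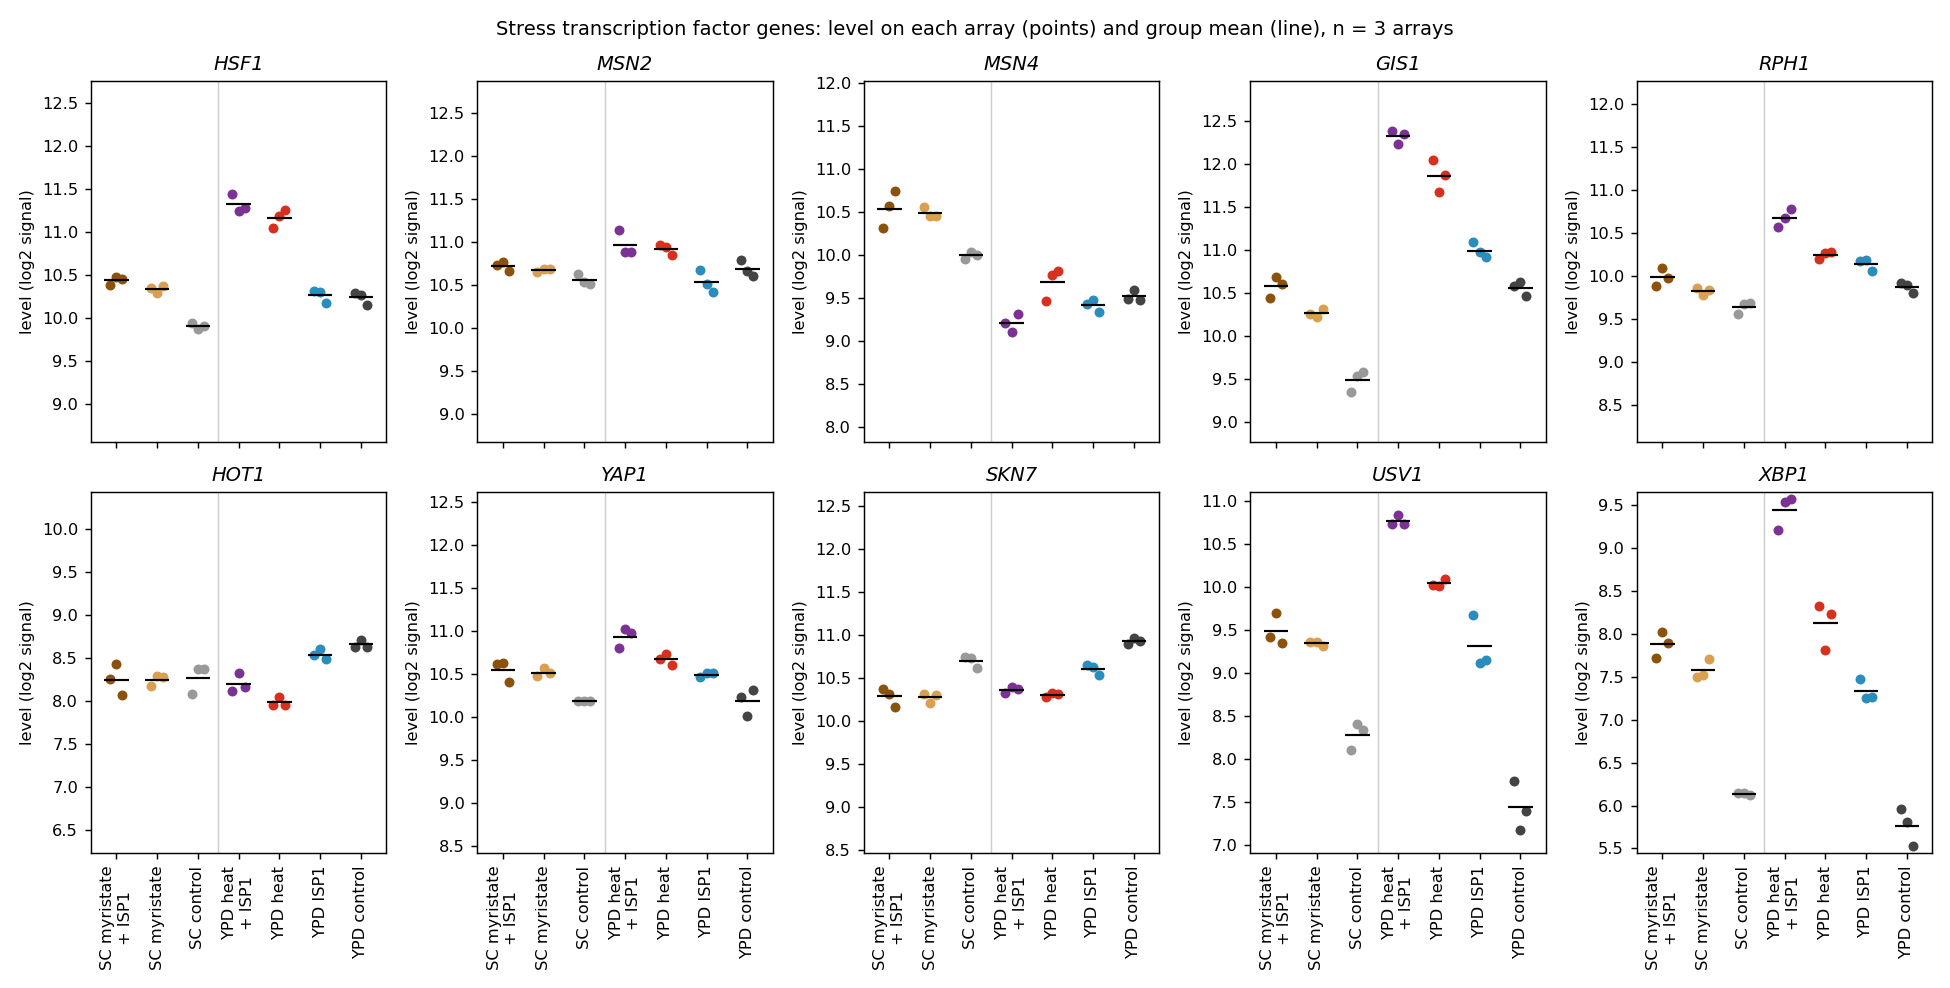
Level of each factor's transcript (y axis, log2 signal) in the 7 groups (x axis), with 1 point per array and a line at the group mean. Every panel spans the same height, so that the wide spread of USV1 and XBP1 between groups can be seen beside the narrow one of MSN2, whose group means differ by at most 0.44.

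Heat changed most of these transcripts: 7 of the 10 genes rose in heated against control cells in YPD, 2 fell (HOT1 and SKN7) and MSN4 did not pass. Limma called 80.6% of all genes in this comparison, 39.8% as higher and 40.9% as lower, so 9 calls among 10 genes is near what genes in general did. The share that changed at least 2-fold was 3 of 10 (USV1, XBP1 and GIS1), against 27.3% of all genes. The arrays of both groups did not overlap for 9 of the 10, against 83.1% of all genes.

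With ISP1 alone 5 of the 10 genes rose against control and SKN7 fell, where limma called 61.1% of all genes (27.9% higher and 33.2% lower). Arrays did not overlap for 7 of the 10, against 66.1% of all genes. When ISP1 was given with heat, GIS1, RPH1, YAP1, USV1 and XBP1 rose and MSN4 fell relative to heat alone. These 6 calls stand beside 32.7% of all genes (16.5% higher and 16.3% lower), and 8 of the 10 had no overlap of arrays, against 45.4%. Heated cells with ISP1 against ISP1 alone gave 7 rises and 2 falls, where 77.2% of all genes were called (40% higher and 37.2% lower), and all 10 had no overlap of arrays, against 79.4%. The median of the 10 log2 fold changes was 0.43 for heat, 0.15 for ISP1, 0.24 for ISP1 added to heat and 0.49 for heat added to ISP1, and over all genes the medians were 0.00, -0.04, 0.01 and 0.03. Heat and ISP1 were set against the same control arrays, so these comparisons are not independent of each other.

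**Figure D2:**
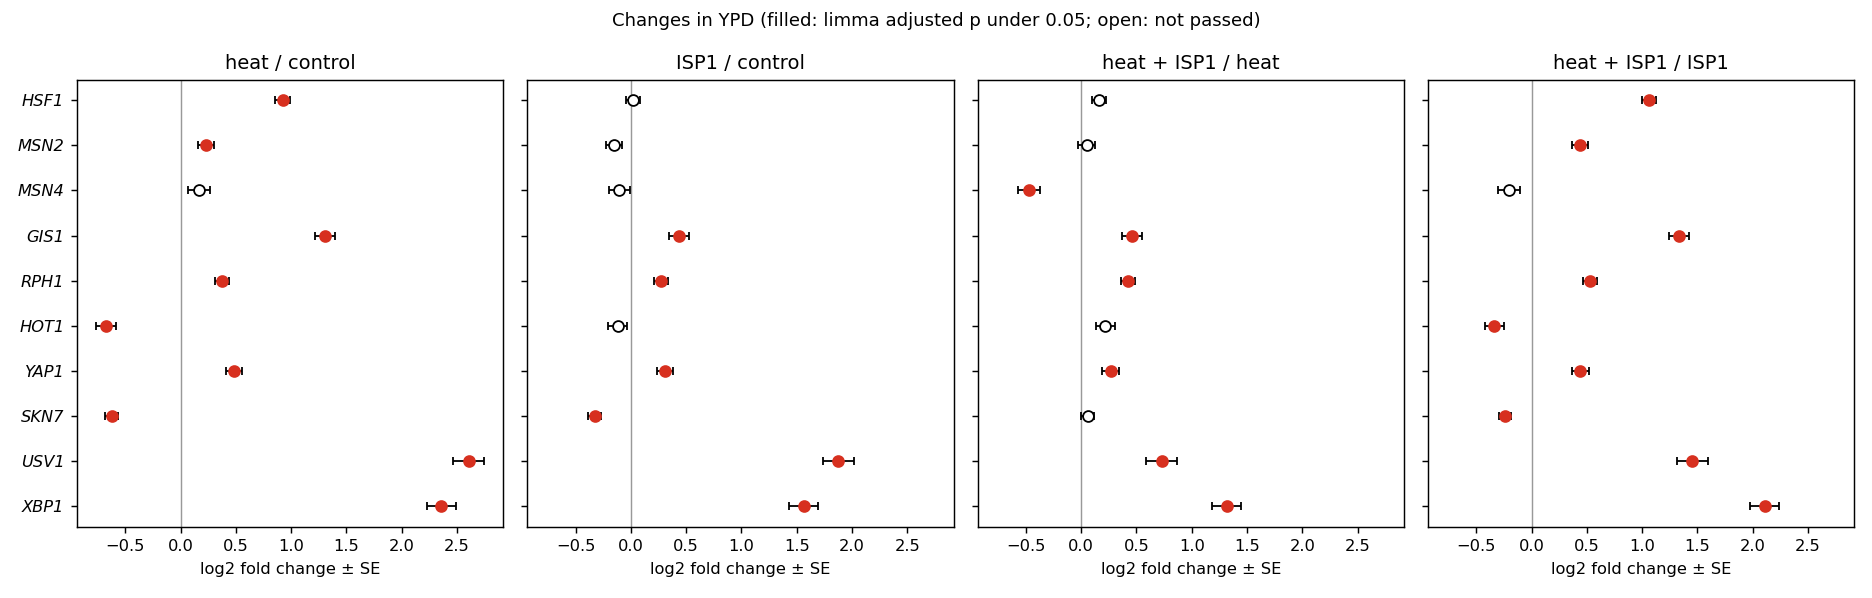
Log2 fold change ± SE (x axis) of the 10 genes (y axis) in the 4 comparisons within YPD, with filled points where limma's adjusted p passed. USV1 (2.60) and XBP1 (2.36) rose most with heat, and MSN4 lay below 0 when ISP1 was added to heat (-0.47).

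The gene of the heat shock factor itself, HSF1 (YGL073W), rose with heat and not with ISP1. Its level was 11.05, 11.18 and 11.25 on the heated arrays, against 10.30, 10.27 and 10.16 on the YPD control arrays. Every heated array lay above every control array, a rise of 0.92 ± 0.06 or 1.90-fold (adjusted p = 1.8e-10). On the ISP1 arrays HSF1 was at 10.32, 10.30 and 10.17, overlapping the control, and its difference was 0.02 ± 0.06 (adjusted p = 0.784). With heat and ISP1 together the level averaged 11.32 ± 0.11 (SD, n = 3), against 10.26 ± 0.08 with ISP1 alone, a rise of 1.06 ± 0.06. Against heat alone the difference was 0.16 ± 0.06 (adjusted p = 0.0649), which passed without heat array 3 (adjusted p = 0.0385) or without heat with ISP1 array 2 (adjusted p = 0.0478). In SC the level was 10.35, 10.29 and 10.37 with myristate, against 9.94, 9.87 and 9.91 in the control, with no overlap.

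MSN2 (YMR037C) varied least of the 10 over the study. In heated cells it averaged 10.92 ± 0.06, against 10.69 ± 0.09 in the YPD control (SD, n = 3), a rise of 0.23 ± 0.07 (adjusted p = 0.00801). Heat with ISP1 against ISP1 alone gave a rise of 0.44 ± 0.07. With ISP1 alone the difference was -0.16 ± 0.07 (adjusted p = 0.0790), and it passed in the fit with replicate number as block, same-numbered arrays having deviated together (adjusted p = 0.0278). It also passed without ISP1 array 1 (adjusted p = 0.0156).

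The measured levels of the paralogue MSN4 (YKL062W) moved otherwise than those of MSN2 in several comparisons. It was at 9.46, 9.77 and 9.82 on the heated arrays, against 9.49, 9.59 and 9.47 on the control arrays. Heated array 1 lay just below the lowest control array and the other heated arrays above the highest. The difference was 0.17 ± 0.10 (adjusted p = 0.121). It passed without heated array 1 (0.28, adjusted p = 0.0123) and with quantile normalization of the S. cerevisiae probe sets alone (0.26, adjusted p = 0.0208). When ISP1 was given with heat, MSN4 was at 9.21, 9.11 and 9.32, below all heated arrays, a fall of 0.47 ± 0.10 (log2 fold change -0.47, adjusted p = 0.00118), whereas MSN2 was at 0.05 ± 0.07 in that comparison. The highest levels of MSN4 were in SC: 10.56, 10.45 and 10.46 with myristate, against 9.95, 10.04 and 9.999 in the SC control, a rise of 0.49 ± 0.10.

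A test of the difference between these paralogues compared the change of the within-array difference, MSN4 minus MSN2. That difference moved by -0.52 when ISP1 was added to heat, by -0.64 when heat was added to ISP1, by 0.38 with myristate and by 0.61 in the SC control against the YPD control. In each of these the 3 arrays of each group did not overlap, and the exact two-sided permutation test gave p = 0.1, the smallest that 3 arrays against 3 allow (0.14 after Benjamini-Hochberg over 14 such tests of both paralogue pairs). With heat alone the change of the difference was -0.06 (exact permutation p = 0.8).

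GIS1 (YDR096W) rose in each treatment given in YPD. Its level was 12.05, 11.67 and 11.87 with heat, against 10.58, 10.63 and 10.47 in the YPD control, a rise of 1.31 ± 0.09 or 2.47-fold. The groups lay more than 1 log2 unit apart at their closest arrays. ISP1 alone gave 11.09, 10.98 and 10.92, all above the control, with a rise of 0.43 ± 0.09 (adjusted p = 0.000380). The combination gave the highest levels of the study, 12.39, 12.24 and 12.35, a rise of 0.46 ± 0.09 over heat alone (adjusted p = 0.000734) and of 1.33 ± 0.09 over ISP1 alone. In SC it was at 10.26, 10.21 and 10.31 with myristate, against 9.34, 9.53 and 9.58 in the SC control, and the arrays of both groups lay below every YPD control array.

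RPH1 (YER169W), the paralogue of GIS1, moved in the same directions by smaller amounts. It rose by 0.38 ± 0.06 with heat (adjusted p = 2.42e-05), by 0.27 ± 0.06 with ISP1 (adjusted p = 0.00123) and by 0.42 ± 0.06 when ISP1 was added to heat (adjusted p = 6.41e-05). The means were 10.67 ± 0.10 with heat and ISP1, 10.25 ± 0.04 with heat, 10.14 ± 0.07 with ISP1 and 9.87 ± 0.06 in the control (SD, n = 3). No arrays overlapped between neighbours in that order, and heat and ISP1 lay closest. The within-array difference GIS1 minus RPH1 moved by 0.93 with heat, by 0.59 with myristate and by 0.16 with ISP1, and by -0.84 in the SC control against the YPD control. Arrays did not overlap in any of these. The exact permutation test gave p = 0.1 for each, large or small, the smallest that 3 arrays against 3 allow (0.14 after Benjamini-Hochberg). GIS1 minus RPH1 changed by 0.04 when ISP1 was added to heat (exact permutation p = 1).

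USV1 (YPL230W), the gene of a zinc finger factor, had the strongest heat response of the 10. It was at 10.02, 10.01 and 10.09 with heat, against 7.74, 7.17 and 7.40 in the YPD control. The heated arrays lay close together and more than 2 log2 units above the highest control, a rise of 2.60 ± 0.14 or 6.08-fold (adjusted p = 4.18e-12), which was the rise of rank 130 among 5449 genes. ISP1 alone gave 9.67, 9.11 and 9.15, a rise of 1.88 ± 0.14 or 3.67-fold, of rank 78 (adjusted p = 2.43e-09). With heat and ISP1 together USV1 was at 10.73, 10.83 and 10.73, above all heated arrays, and the rise over heat was 0.73 ± 0.14 (adjusted p = 0.000707).

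XBP1 (YIL101C), the gene of the repressor, had the widest range of group means of the 10, 3.67 log2 units or 12.7-fold between the combination and the YPD control. It was at 8.33, 7.81 and 8.23 with heat, against 5.96, 5.81 and 5.53 in the control, a rise of 2.36 ± 0.13 or 5.12-fold (adjusted p = 6.78e-12). With ISP1 alone it was at 7.47, 7.25 and 7.26, between the control and heat and apart from both, a rise of 1.56 ± 0.13 or 2.95-fold. The combination gave 9.21, 9.53 and 9.57, all above the highest heated array, a rise of 1.31 ± 0.13 or 2.49-fold over heat (adjusted p = 6.41e-07). That rise ranked 25 among 5449 genes, in a comparison where 1.45% of all genes changed at least 2-fold. The control levels of XBP1 were the dimmest of the 10 genes' values, set against a background limit of 4.89.

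HOT1 (YMR172W), the osmotic stress factor, fell with heat. Its level was 7.95, 8.05 and 7.95 on heated arrays, against 8.63, 8.71 and 8.63 on control arrays, a log2 fold change of -0.67 ± 0.09 (1.60-fold lower, adjusted p = 8.91e-07). With ISP1 alone it was at 8.53, 8.60 and 8.48. Those arrays lay just below the control arrays, and the difference did not pass (-0.12 ± 0.09, adjusted p = 0.244), though it did with quantile normalization of the S. cerevisiae probe sets alone (-0.18, adjusted p = 0.0132). The combination gave 8.12, 8.32 and 8.17, above the heated arrays by 0.22 ± 0.09 (adjusted p = 0.0624). That difference passed once replicate number entered as a block (adjusted p = 0.0213), with quantile normalization (0.32, adjusted p = 0.000528) and with median centring (0.20, adjusted p = 0.0462).

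The oxidative stress factors went in opposite directions. YAP1 (YML007W) averaged 10.67 ± 0.07 with heat, 10.50 ± 0.02 with ISP1 and 10.19 ± 0.16 in the YPD control (SD, n = 3), rises of 0.48 ± 0.08 and 0.31 ± 0.08 (adjusted p = 1.09e-05 and 0.00176). Adding ISP1 to heat gave 10.81, 11.03 and 10.98, a rise of 0.27 ± 0.08 (adjusted p = 0.0121) that did not pass without heat array 3 (0.0551) or without heat with ISP1 array 2 (0.0616). SKN7 (YHR206W) was at 10.28, 10.33 and 10.31 with heat, against 10.90, 10.96 and 10.93 in the control, a log2 fold change of -0.62 ± 0.06 (1.54-fold lower, adjusted p = 7.00e-09). ISP1 alone placed it between these groups, at 10.65, 10.63 and 10.53 (-0.33 ± 0.06, adjusted p = 6.01e-05). With heat present ISP1 left SKN7 at 10.33, 10.39 and 10.37, a difference of 0.06 ± 0.06 from heat alone (adjusted p = 0.456).

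Whether ISP1 acted alike with and without heat was tested by the interaction, the ISP1 effect with heat minus the ISP1 effect without heat. Limma called 4 of the 10 genes, where it called 40.9% of all genes (21.8% above 0 and 19.1% below). For USV1 the interaction was -1.15 ± 0.20 (adjusted p = 0.000173): ISP1 added 0.73 to heated cells and 1.88 to unheated ones. For SKN7 it was 0.39 ± 0.08 (adjusted p = 0.000835), since the fall seen with ISP1 alone was not seen on top of heat. MSN4 (-0.37 ± 0.14, adjusted p = 0.0390) and HOT1 (0.34 ± 0.12, adjusted p = 0.0348) passed more narrowly. MSN4 lost its call in 8 of 19 alternative settings, each without 1 array, with adjusted p between 0.00614 and 0.104 over all of them, and HOT1 in 7 of 19 (0.00013 to 0.0964). The arrays whose absence ended the MSN4 call were heat with ISP1 1 and 2, heat 2 and 3, ISP1 1 and 2, and control 1 and 3. For HOT1 they were heat with ISP1 2, heat 1 and 3, ISP1 1 and 3, and control 2, and an intensity trend with a robust prior ended it too (adjusted p = 0.0575).

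XBP1 and GIS1 did not pass that test. The ISP1 effect on XBP1 was 1.31 ± 0.13 with heat and 1.56 ± 0.13 without, an interaction of -0.25 ± 0.19 (adjusted p = 0.309). Over 19 alternative settings that value ranged between -0.40 without heat array 2 (adjusted p = 0.0683) and -0.04 with quantile normalization of the S. cerevisiae probe sets alone (adjusted p = 0.908). Leaving out control array 3 gave -0.13, heat array 1 gave -0.15, and heat with ISP1 array 1 gave -0.13. For GIS1 the effects were 0.46 ± 0.09 and 0.43 ± 0.09, an interaction of 0.03 ± 0.13 (adjusted p = 0.889), which changed sign between settings (-0.07 to 0.12). With standard errors of this size, equal effects are not shown.

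**Figure D3:**
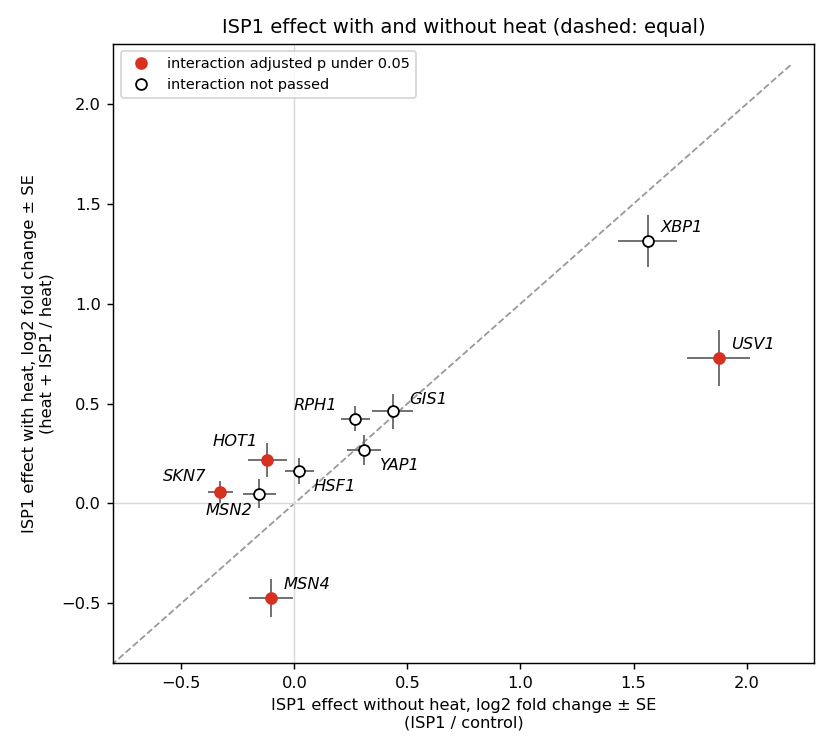
ISP1 effect with heat (y axis) against ISP1 effect without heat (x axis), log2 fold change ± SE, 1 point per gene, filled where limma's interaction passed, with a dashed line where both effects are equal. USV1 lies far below the line (0.73 against 1.88), SKN7 above it (0.06 against -0.33), and GIS1 near it (0.46 against 0.43), with XBP1 at 1.31 against 1.56.

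In SC, myristate raised 7 of the 10 genes against the SC control, lowered SKN7, and left MSN2 and HOT1 without a call, where limma called 52.3% of all genes (26.6% higher and 25.7% lower). Arrays did not overlap for 9 of the 10, against 62.7%. XBP1 was at 7.49, 7.52 and 7.71 with myristate, against 6.15, 6.15 and 6.12 in the SC control, a rise of 1.44 ± 0.13 or 2.70-fold (rank 59 of 5449, adjusted p = 7.84e-08). USV1 was at 9.36, 9.36 and 9.32, against 8.10, 8.41 and 8.33, a rise of 1.07 ± 0.14. No array of either gene overlapped between these groups. GIS1 rose by 0.78 ± 0.09, HSF1 by 0.43 ± 0.06 and YAP1 by 0.33 ± 0.08, and SKN7 was at -0.42 ± 0.06. The rise of RPH1 (0.18 ± 0.06, adjusted p = 0.0210) was lost without SC control array 1 (0.0974) or without myristate array 1 (0.0696) or 3 (0.0540). Myristate array 1 and SC control array 1 also had the lowest medians over all probe sets, 6.36 and 6.16, against 6.56 to 7.07 on the other arrays.

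Adding ISP1 to myristate gave no call among the 10 genes. Limma called 1 of all 5449 genes there (0.0184%). The largest differences among the 10, none of which passed, were those of GIS1 (0.31 ± 0.09, adjusted p = 0.331), XBP1 (0.31 ± 0.13, adjusted p = 0.692) and RPH1 (0.16 ± 0.06, adjusted p = 0.674). USV1 was at 9.42, 9.70 and 9.35 with both agents, around the 9.32 to 9.36 with myristate alone (0.15 ± 0.14, adjusted p = 0.998). Arrays of the groups did not overlap for 4 of the 10 genes, against 13% of all genes. Whether ISP1 acted differently under myristate than in YPD was not tested, since medium and treatment time cannot be told apart from it.

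The untreated cultures differed too. In the SC control, against the YPD control, MSN4, USV1 and XBP1 were higher and HSF1, GIS1, RPH1, HOT1 and SKN7 lower, 8 of 10 beside a background of 59.8% (18.9% higher and 40.9% lower). Arrays did not overlap for 8 of the 10, against 67.8%. The median over all genes was -0.13 in this comparison. GIS1 changed most, at -1.07 ± 0.09 (adjusted p = 1.30e-08), the fall of rank 98 among 5449 genes. USV1 was higher by 0.84 ± 0.14 and MSN4 by 0.48 ± 0.10. YAP1 did not pass between the media (0.00 ± 0.08, adjusted p = 0.990). XBP1 (0.37 ± 0.13, adjusted p = 0.0214) moved to 0.66 with quantile normalization of the S. cerevisiae probe sets alone and did not pass without YPD control array 3 (0.25, adjusted p = 0.129) or without SC control array 1 (adjusted p = 0.0504).

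**Figure D4:**
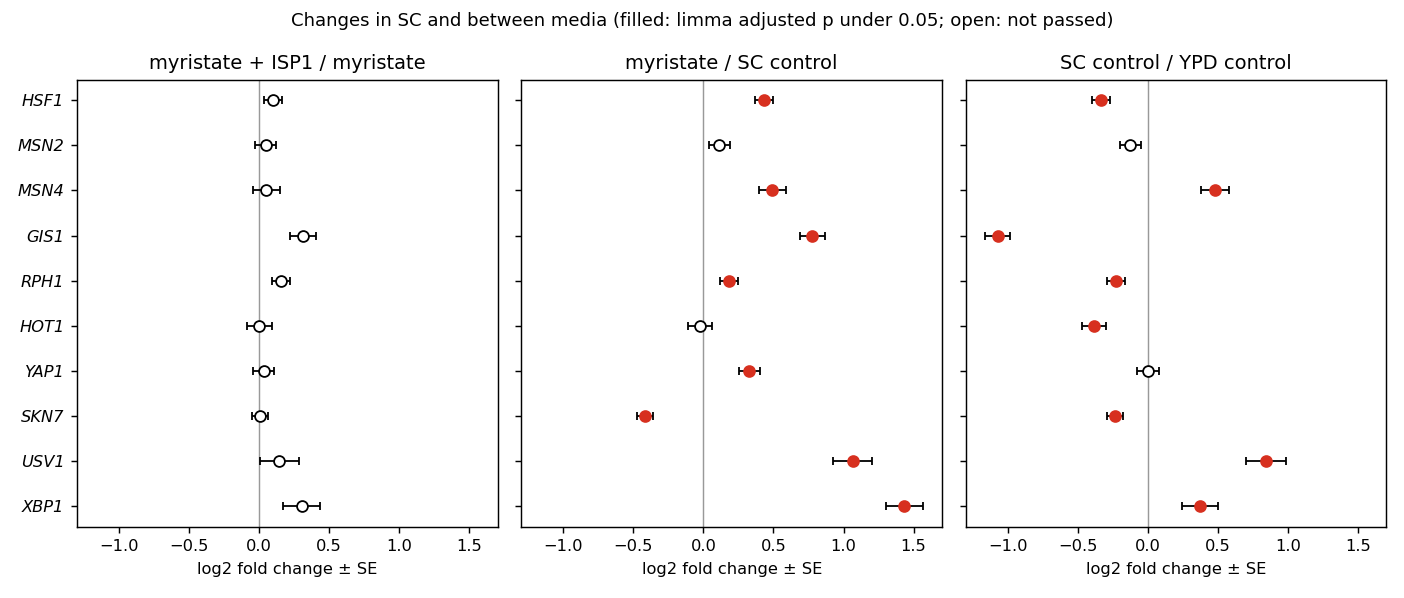
Log2 fold change ± SE (x axis) of the 10 genes (y axis) for ISP1 added to myristate, for myristate in SC, and for the SC control against the YPD control, with filled points where limma's adjusted p passed. No gene passed in the left panel, XBP1 (1.44) and USV1 (1.07) lead the middle one, and GIS1 (-1.07) is lowest in the right one.

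Over all 7 groups the levels fell into a few orders. For USV1, XBP1, GIS1, RPH1, HSF1, YAP1 and MSN2 the combination of heat and ISP1 was highest and heat alone next, with overlapping arrays between these neighbours for HSF1 and MSN2. For USV1 and XBP1 the YPD control was lowest and the SC control next, with no overlap. Their middle positions, ISP1, myristate and myristate with ISP1, overlapped neighbour by neighbour for USV1 (means of 9.31, 9.34 and 9.49) and not for XBP1 (7.33, 7.57 and 7.88), where myristate with ISP1 overlapped heat. HSF1, GIS1 and RPH1 were lowest in the SC control, apart from the next group in each case. YAP1 was lowest in both controls, which overlapped (10.19 each), and its ISP1, myristate and myristate with ISP1 groups overlapped in turn. HOT1 and SKN7 were highest in the YPD control. HOT1 was lowest with heat, and SKN7 lay between 10.16 and 10.39 on every array with heat or myristate, ISP1 added or not. MSN4 ran by medium: all 3 SC groups stood above all 4 YPD groups, with no overlap between heat and the SC control.

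Across the 21 arrays, which share the 7 groups, USV1 and XBP1 correlated with r = 0.97 and GIS1 and RPH1 with r = 0.95, whereas MSN2 and MSN4 gave r = -0.27. These values describe differences between groups more than between replicates. Among the 5355 genes above background, those most like each factor by Pearson's r over the 21 arrays were UIP3 (0.98) and LAM4 (0.98) for XBP1, TGL2 (0.98) and IGD1 (0.98) for USV1, and HUL4 (0.99) and TOS8 (0.99) for GIS1. They were YDR131C (0.98) and PCP1 (0.98) for HSF1, RUP1 (0.97) and YOR019W (0.97) for RPH1, and AST2 (0.97) and AIM21 (0.96) for YAP1. SKN7 was nearest to MMT1 (0.97) and TCB2 (0.96), HOT1 to TYW3 (0.92) and PTI1 (0.92), MSN2 to ABZ1 (0.94) and YAP5 (0.91), and MSN4 to CDC6 (0.94) and YKL068W-A (0.93).

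Genes that these factors are known to control were counted from lists taken from textbook knowledge. The 6 lists, that of regulators included, were chosen with earlier results of these data known. Their counts therefore describe these data and are not independent evidence. Beside their counts stand the shares of all genes that limma called higher and lower: 39.8% and 40.9% with heat, 27.9% and 33.2% with ISP1, 26.6% and 25.7% with myristate. The median over all genes was 0.00 with heat, -0.04 with ISP1 and -0.01 with myristate. All 19 target genes of Hsf1, most of them chaperone genes, rose with heat, with a median of 1.90. SSA4, an Hsp70 gene, rose by 4.67 ± 0.14, the sorting factor gene BTN2 by 3.78 ± 0.14 and the small heat shock protein gene HSP42 by 3.66 ± 0.12. With ISP1 alone 4 of the 19 rose, 12 fell and 3 did not pass (median -0.30), where 33.2% of all genes fell, and HSP42 was among the rises at 1.44 ± 0.12. With myristate 14 of the 19 rose, 1 fell and 4 did not pass (median 0.47), where 26.6% of all genes rose.

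Of the genes driven by Msn2 and Msn4, 26 of 26 rose with heat (median 3.50), 25 of 26 with ISP1 (1.82) and 25 of 26 with myristate (1.01), where 39.8%, 27.9% and 26.6% of all genes rose, while MSN2 and MSN4 themselves moved by less than 0.5 in each of these comparisons. ALD3, an aldehyde dehydrogenase gene, rose by 5.71 ± 0.14 with heat and by 1.58 ± 0.14 with ISP1. SOL4, a pentose phosphate pathway gene, rose by 5.44 ± 0.12 and 2.78 ± 0.12, and RTN2, a reticulon gene, by 5.34 ± 0.10 and 2.16 ± 0.10. When ISP1 was added to heat 3 of the 26 rose and 23 did not pass, with a median of 0.05 against 0.01 over all genes. That count is near the 16.5% of all genes that rose in this comparison. The interaction was below 0 for 24 of 26 by limma's call, where 19.1% of all genes were called below 0, with a median of -1.76 against 0.04 over all genes. In the SC control against the YPD control 24 of 26 were higher (median 2.28 against -0.13 over all genes), where 18.9% of all genes were.

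The lists of the other factors gave mixed counts. All 6 genes that Rph1 represses rose with heat (median 1.72), with ISP1 (0.79) and with myristate (0.86), where 39.8%, 27.9% and 26.6% of all genes rose. RPH1 itself rose in each of these comparisons. ATG8, the ubiquitin-like autophagy gene, rose by 3.17 ± 0.07 with heat, the photolyase gene PHR1 by 2.76 ± 0.11 and the autophagy gene ATG7 by 1.80 ± 0.11. Of 5 genes of Hot1, 5 rose with heat (median 1.34, with 39.8% of all genes rising), where HOT1 fell: RTC3 by 4.36 ± 0.11, and the glycerol synthesis genes GPD1 by 1.45 ± 0.06 and GPP2 by 1.34 ± 0.11. Of 15 genes of Yap1, several of them shared with Skn7, 9 rose with heat, 4 fell and 2 did not pass (median 0.27), where 39.8% of all genes rose and 40.9% fell. Among these SRX1, the sulfiredoxin gene, rose by 2.80 ± 0.10 and OYE3, an NADPH dehydrogenase gene, by 1.02 ± 0.13, and the peroxidase gene GPX2 was at -1.55 ± 0.08.

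Among 20 genes for regulators of these factors, 14 rose with heat, 5 fell and 1 did not pass, where 39.8% of all genes rose and 40.9% fell (median 0.35 against 0.00). YAK1, which encodes a kinase that acts against protein kinase A signalling and phosphorylates Hsf1 and Msn2, rose by 2.05 ± 0.11 with heat, by 0.98 ± 0.11 with ISP1 and by 0.48 ± 0.11 when ISP1 was added to heat. SSK1, of the osmosensing phosphorelay upstream of Hog1, rose by 1.03 ± 0.09 with heat. SCH9, the kinase gene of the TORC1 pathway that restrains stress factors through Rim15, was at -0.96 ± 0.06 with heat and -0.63 ± 0.06 with ISP1. With ISP1 alone 10 of the 20 rose, 6 fell and 4 did not pass, where 27.9% of all genes rose and 33.2% fell (median 0.13 against -0.04). With myristate 11 rose, 2 fell and 7 did not pass, where 26.6% of all genes rose and 25.7% fell (median 0.14 against -0.01).

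**Figure D5:**
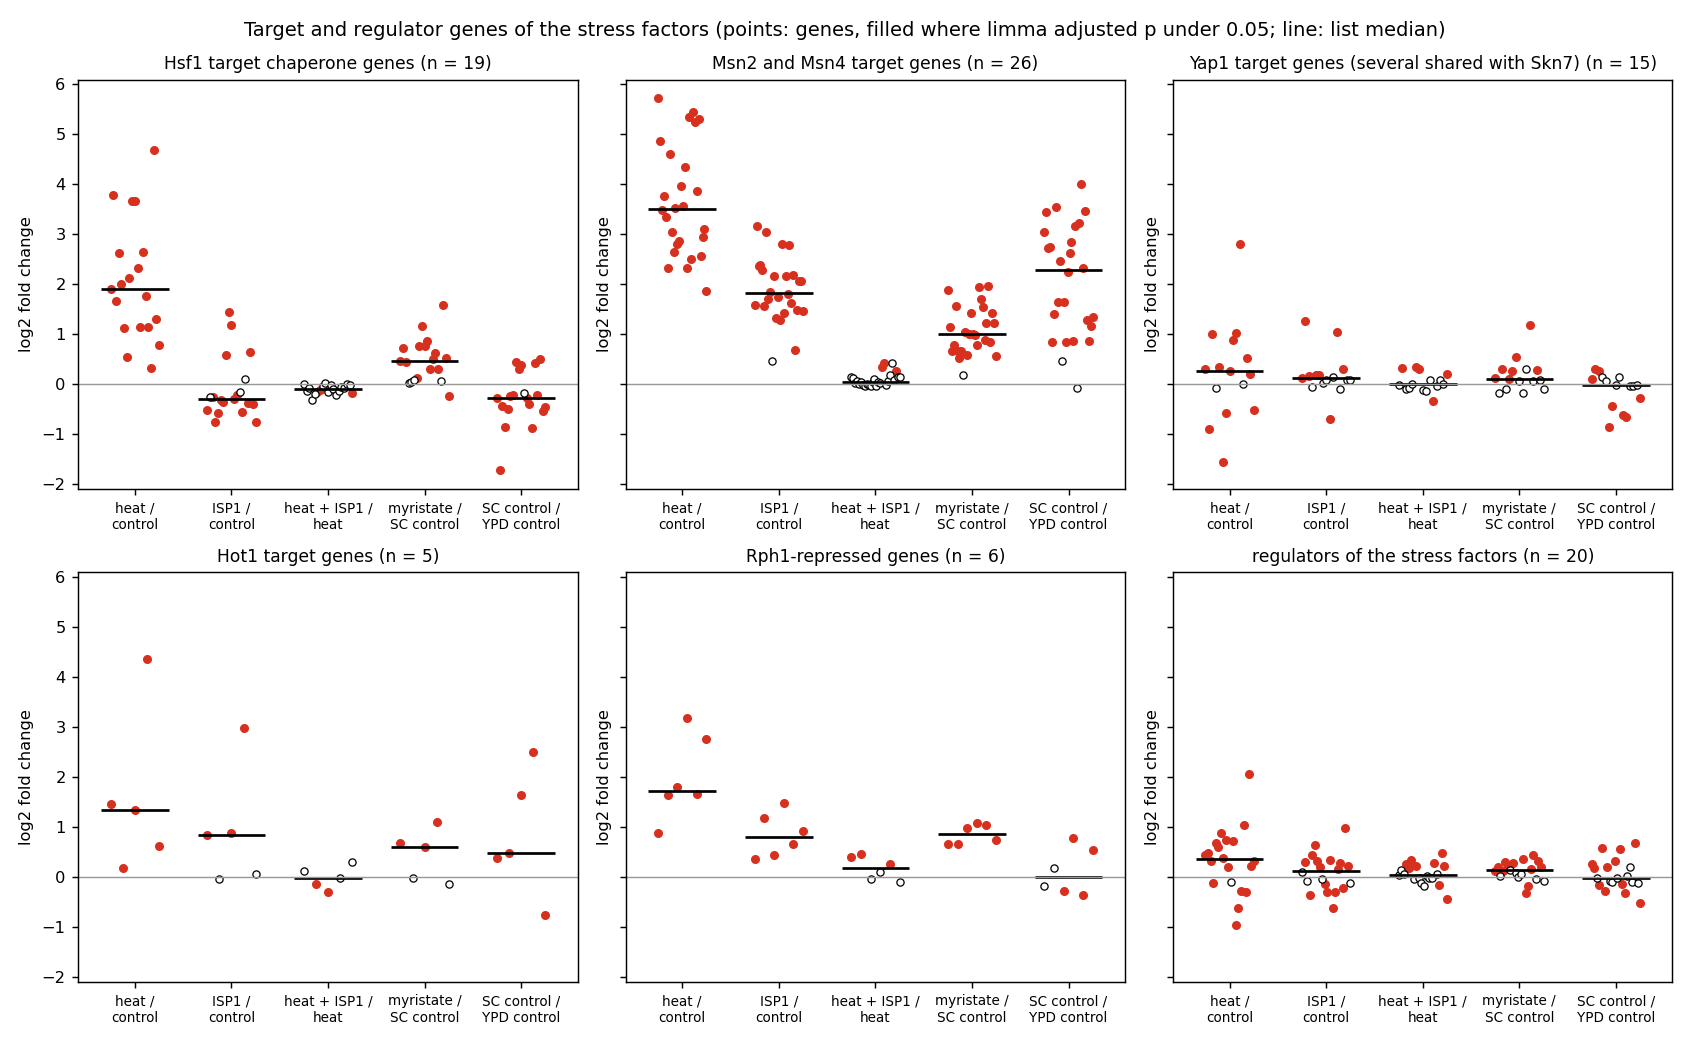
Log2 fold change (y axis) of the genes of 6 lists in 5 comparisons (x axis), 1 point per gene, filled where limma's adjusted p passed, with a line at the list's median. The genes of Msn2 and Msn4 lie high with heat (median 3.50) and near 0 when ISP1 is added to heat (median 0.05). The median of the Hsf1 target genes is 1.90 with heat and -0.30 with ISP1 alone, where genes lie on both sides of 0.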

How the data were processed

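RNA was extracted with phenol and biotin-labelled for Affymetrix arrays, as the labels' protocols state. The values are log2 signal per probe set, as the authors deposited them for 21 arrays. Affy and RMA are named, without version, in the submitters' processing notes. RMA's quantile normalization hides a change shared by most genes. Groups and replicate numbers came from the sample titles.

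Of 10928 probe sets, 5498 carried 1 S. cerevisiae gene by the probe annotation and gene table. The 1746 of another species served as background (95th percentile 4.89). For 47 genes with several probe sets the brightest was used, leaving 5449 genes. All 8 comparisons were contrasts of group means fitted jointly to the 21 arrays (limma 3.58.1, R 4.3.3, 14 residual degrees of freedom), and the script was tested on simulated data.

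Replicate numbers in the titles were checked for pairing by the correlation of deviations from group means. It was over 0.1 for every number when ISP1 was set against control (0.23 to 0.53), heat plus ISP1 against heat (0.172 to 0.433) and against ISP1 (0.132 to 0.35), and myristate against SC control (0.322 to 0.626).

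The 10 genes and the 6 lists were chosen with earlier results of these data known. All 10 genes are named, with the 2 genes most correlated with each, and from each list the 3 genes with the largest heat change. Alternatives are given in the closing section.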

Additional observations from a re-analysis of the deposited data

Results flagged for a closer look

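The effect of ISP1 differed between heated and unheated cells in YPD for 4 of the 10 genes by limma's interaction test, which is why they stand here. USV1 differed by -1.15 ± 0.20 (log2, effect with heat minus effect without, adjusted p = 0.000173) and SKN7 by 0.39 ± 0.08 (adjusted p = 0.000835), and both kept their call in all 19 alternative settings. MSN4 differed by -0.37 ± 0.14 (adjusted p = 0.0390) and HOT1 by 0.34 ± 0.12 (adjusted p = 0.0348). Both lay near the threshold, and the call was lost in 8 of 19 alternative settings for MSN4 and in 7 of 19 for HOT1. For scale, limma called 40.9% of all genes in this test.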

How the results depend on the processing

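The counts of called genes among the 10 were recomputed with only the arrays compared, with the replicate block, with quantile normalization or median centring on the yeast genes alone, with dim genes removed, with an intensity trend and robust prior, with probe sets averaged per gene, and without each array. The interaction count of 4 ranged between 2 and 4 without single arrays and between 3 and 4 otherwise. The other counts stayed within 1 of their value: 9 to 10 for heat, 6 to 7 for ISP1, 6 to 7 for ISP1 added to heat, 9 to 10 for heat added to ISP1, 7 to 8 for myristate, 0 for ISP1 added to myristate and 7 to 8 for the SC against the YPD control. Of the recomputed differences of single genes, 1065 kept their side of the threshold, 22 no longer passed and 13 newly passed. The sign turned in 28 of them, spread over 10 differences, and none of these passed under either setting, so 0 called differences reversed. Among the newly passed was MSN4 for heat with ISP1 against ISP1 alone, which passed with only the arrays compared (adjusted p = 0.0386) or without heat with ISP1 array 3 (0.0413), and the MSN2 interaction without ISP1 array 1 (0.0387). The cause was not tested.

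Under the replicate block, MSN2 passed for ISP1 against control (adjusted p = 0.0278) and HOT1 for heat with ISP1 against heat (0.0213), and it changed no other call of the 10 genes. The numbers did not pair the arrays for heat against control (0.059 to 0.207), myristate with ISP1 against myristate (-0.088 to 0.244) or the SC against the YPD control (-0.127 to 0.129). Groups of 3 arrays limit small differences, and XBP1 lay nearest to background.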
